A study of Mus musculus with 20 samples.

Results

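Cysteine is a non-essential amino acid for mice that carry a working Cse allele, whereas tryptophan is essential for all mice. This report describes what liver RNA looked like in Cse+/- mice that had been shifted to a diet without cysteine (no-Cys, n = 4) and in Cse+/- mice that had been shifted to a diet without tryptophan (no-Trp, n = 3), which are 7 of the 20 livers in the series. A liver belongs here by its genotype and diet, and no measured value entered that rule. Cse (gene symbol Cth) encodes cystathionine gamma-lyase, the enzyme that makes cysteine from cystathionine. The GEO labels call this control genotype WT, and the study's mouse list gives the same animals as heterozygous. All animals were males of a Cse line on a mixed 129 and C57BL/6 background, at least 9 weeks old at the start. Every mouse, controls included, was first held for 3 days on calorie-restricted (CR) control diet and then for 2 days on its final diet, with the restriction kept up in all groups. The diets were defined amino acid mixtures in which the other amino acids had been raised in proportion to replace the missing one. Each library was made from 1 liver. The livers are named here by their mouse numbers, which are av01, av02, av03 and av04 for no-Cys and av17, av19 and av20 for no-Trp. Another 2 Cse+/- livers, av21 and av22, came from mice kept on control diet and serve as a reference for the direction of a difference. The comparison asks how the lack of an amino acid that the mouse can make differs from the lack of one that it cannot. The series also holds Cse-/- livers, 4 on no-Cys, 3 on no-Trp and 4 on no-Trp with BSO, an inhibitor of glutathione synthesis. All of these enter the shared estimate of spread behind every test. Those on no-Cys and on no-Trp without BSO also serve in a comparison between genotypes.

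Lack of an amino acid is sensed in liver cells mainly by the kinase GCN2, which phosphorylates the initiation factor eIF2alpha, slows protein synthesis and raises translation of the transcription factor ATF4. ATF4 in turn drives genes of amino acid synthesis, transport and tRNA charging, a program called the integrated stress response (ISR). Cysteine also feeds glutathione, coenzyme A and taurine, and the transcription factor NRF2 drives glutathione genes under oxidative stress. The liver makes cholesterol and fatty acids under the SREBP transcription factors, follows the circadian clock and feeding time, and answers glucocorticoids and growth hormone.

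The no-Cys libraries held 11785740 to 15068939 counts and the no-Trp libraries 14790326 to 46024996, and the 2 control-diet libraries held 15921138 and 18043106. Cth, given as CPM (read counts relative to library size, scaled by TMM factors), stood at 332, 125, 132 and 121 in the no-Cys livers and at 159.6, 155 and 88.4 in the no-Trp livers, with 205 and 184 on control diet. The groups overlapped and the difference was not called (log2 fold change 0.40, SE 0.30, adjusted p = 0.435). With 1 liver left out it ranged from -0.089 to 0.55. In the Cse-/- livers of the same diets Cth ranged from 6.37 to 14.4 CPM, below every Cse+/- liver. On the first principal component the 3 no-Trp livers lay between 27.9 and 33.04 and the 4 no-Cys livers between -31.9 and -9.27, with av04 nearest to the no-Trp side. All 10 hepatocyte markers tested were present in every liver, and edgeR called 0 of 10 different, while DESeq2 also called 0, and an unadjusted p under 0.05 was reached by 2 higher and 2 lower genes. Albumin (Alb) ranged from 64175 to 87978 CPM on no-Cys and from 52627 to 61870 on no-Trp (adjusted p = 0.133). Of 7 endothelial markers, Lyve1 (log2 fold change -0.90, adjusted p = 0.00888) and Pecam1 (-0.40, adjusted p = 0.0316, up to 0.0905 with 1 liver left out) were lower on no-Cys, while the summed level of the list was 280.1 to 321.2 CPM on no-Cys and 260.8 to 289.4 on no-Trp. Neutrophil and monocyte markers summed to 1.13 to 2.52 CPM on no-Cys and 2.70 to 4.90 on no-Trp, and adipocyte markers to 0 to 1.06 and 0.0934 to 30.8, the highest in av17. The share of mitochondrial counts was 5.17% to 5.84% on no-Cys, 4.40% to 4.76% on no-Trp and 5.25% to 5.43% on control diet. The part of these markers and of the mitochondrial share in the results below was not tested. In whole liver, fewer cells of a type and less RNA per cell cannot be told apart.

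Of 14759 genes tested with edgeR's quasi-likelihood method, 683 (4.63%) were higher and 503 (3.41%) lower on no-Cys than on no-Trp at a Benjamini-Hochberg adjusted p under 0.05. The median log2 fold change over all genes was 0.013, so the lists below are read against a centre close to 0. The 4 no-Cys values lay wholly above the 3 no-Trp values for 1548 genes (10.5%) and wholly below them for 1263 genes (8.56%). The counts of calls moved with single livers, from 332 higher without av20 and 341 without av02 to 705 without av04, and from 256 lower without av02 to 624 without av04. The plot of all genes shows the named genes with the largest differences at both ends.

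**Figure D1:**
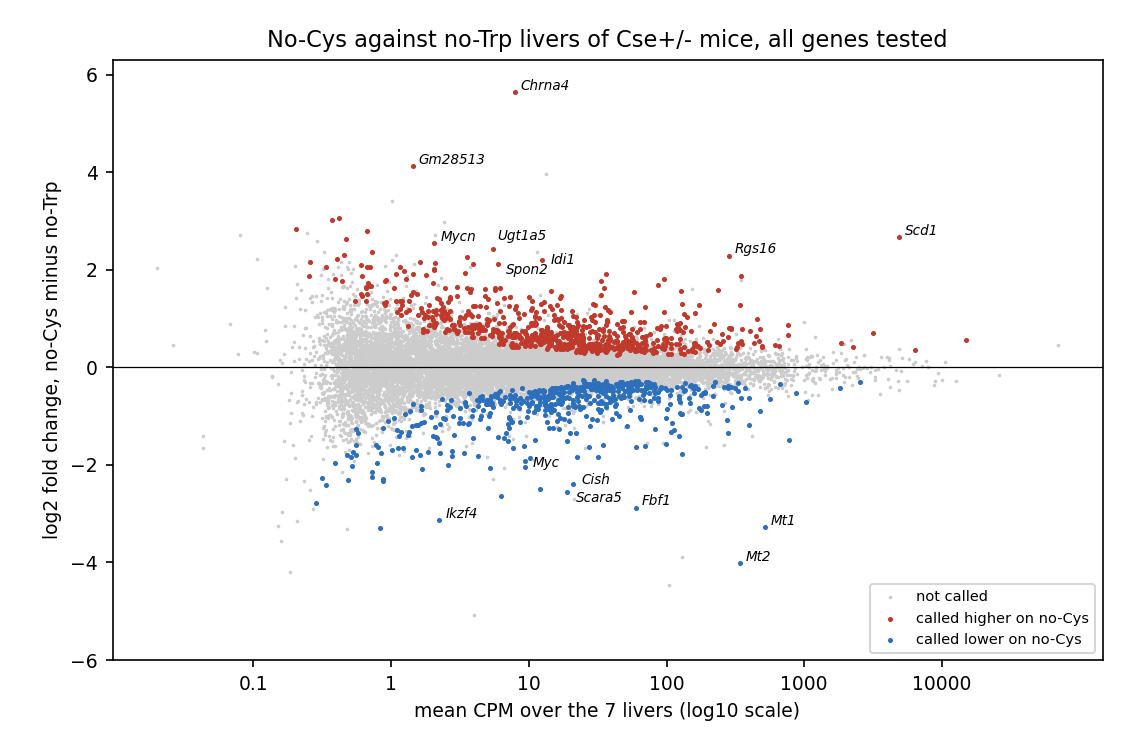
Log2 fold change of no-Cys minus no-Trp (vertical axis) against mean CPM over the 7 livers (horizontal axis, log10 scale) for 14759 genes. Red points are the 683 genes called higher on no-Cys, blue points the 503 called lower and grey points the rest; Chrna4 (5.64) and Mt2 (-4.00) lie farthest out among the labelled genes, all of which were called.

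The clearest groups on the higher side were cholesterol synthesis (14 of 20 genes called, 0 lower), lipogenesis (8 of 19 higher, 0 lower) and part of the circadian clock (7 of 17 higher, 3 lower). On the lower side stood the metallothioneins with 2 glucocorticoid-responsive genes (4 of 9 lower, 1 higher), the growth hormone feedback genes Cish and Socs2 (2 of 14 lower, 0 higher), 3 of 16 ISR regulators (1 higher) and 6 of 21 genes of the unfolded protein response of the endoplasmic reticulum (0 higher). These shares, and those of the lists described further below, stand against 4.63% of all genes called higher and 3.41% called lower.

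**Figure D2:**
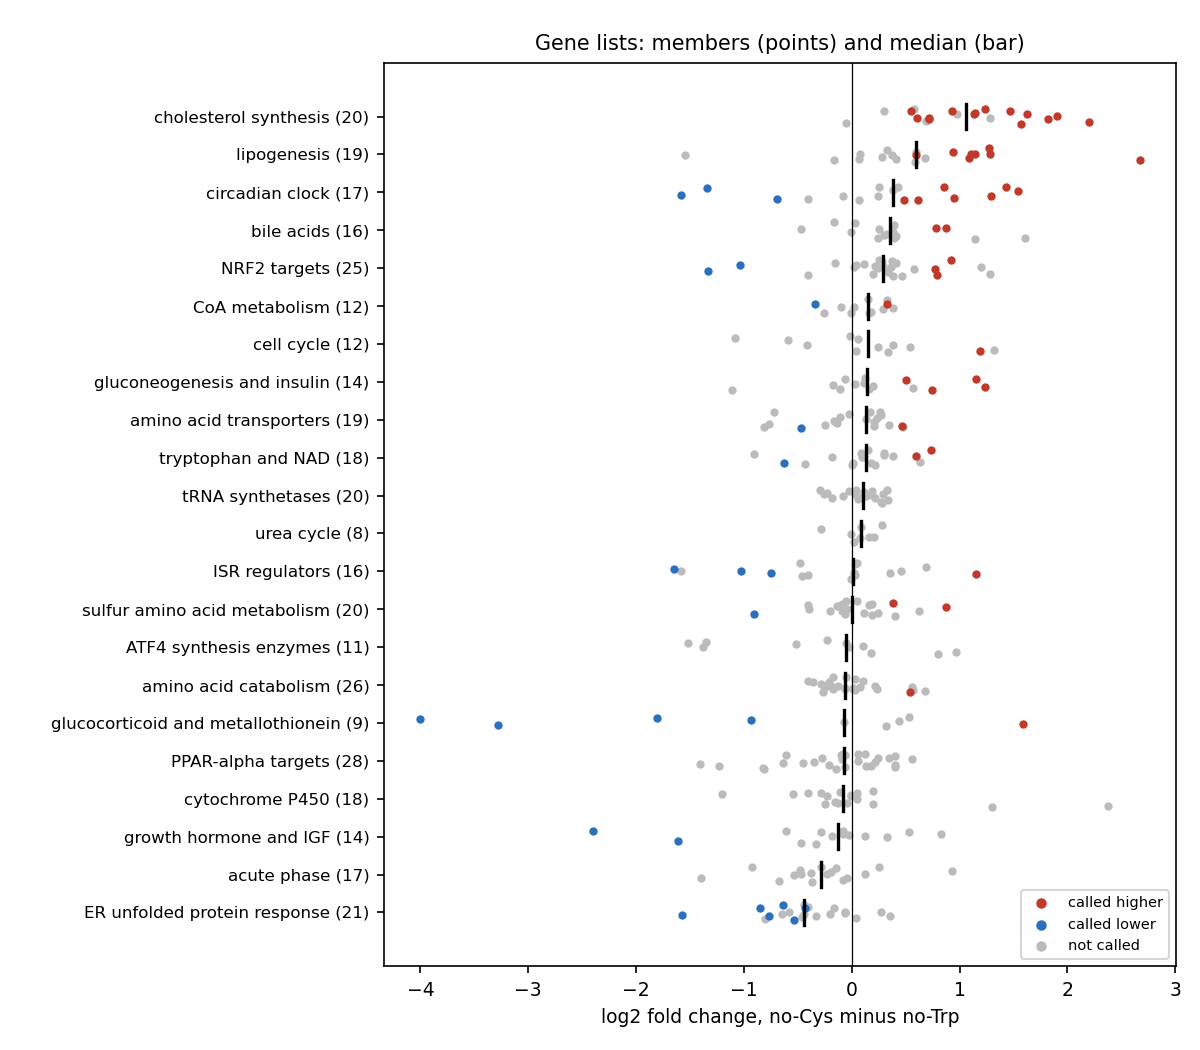
Log2 fold change of no-Cys minus no-Trp for the tested members of each gene list, with the number tested in brackets. Each point is a gene, red where called higher, blue where called lower and grey where not called, and the black bar is the list's median, which runs from -0.44 (unfolded protein response) to 1.06 (cholesterol synthesis).

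Genes of cholesterol synthesis were higher on no-Cys nearly throughout the pathway. Their median log2 fold change was 1.06, 18 of 20 genes had no overlap between the diets, and the summed level of the list was 2033 to 2299 CPM on no-Cys, 1232 to 1315 on no-Trp and 1538 to 1750 on control diet. The called genes include members from the first committed steps (Hmgcs1, Mvk, Pmvk, Mvd, Idi1) through squalene formation and closure (Fdft1, Sqle, Lss) to the late sterol steps (Msmo1, Nsdhl, Hsd17b7, Dhcr7). Hmgcs1 (chr13:119690379-119708260, GRCm38, GENCODE annotation), the cytosolic HMG-CoA synthase, is shown because it was the one member called against control diet as well. The bases printed are the 250 before its RefSeq start, which differs from the GENCODE start. The sequence is from RefSeq (GRCm38.p6, chr13:119690101-119690350, plus strand) and its capitals mark the letters TCACNCCAC, a sterol-type element.
Hmgcs1 promoter: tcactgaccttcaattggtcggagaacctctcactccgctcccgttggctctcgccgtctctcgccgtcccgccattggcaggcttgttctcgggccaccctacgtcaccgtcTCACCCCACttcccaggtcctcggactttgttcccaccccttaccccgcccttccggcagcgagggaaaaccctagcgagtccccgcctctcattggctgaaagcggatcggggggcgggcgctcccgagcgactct
On either strand TCACNCCAC was present in 1.05% of 32841 mouse promoters and in 1 of the 13 promoters found for 10 of the 14 called cholesterol genes. This motif was chosen after the values were seen, and the match is a description of the letters only.

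Hmgcs1 stood at 147, 238, 136 and 193 CPM in the no-Cys livers, at 37.2, 65.4 and 77.4 in the no-Trp livers and at 76.1 and 55.8 on control diet. All no-Cys livers were above all others, and the difference between the diets was 1.57 on the log2 scale (SE 0.27, adjusted p = 0.00224). Mvk, mevalonate kinase, had 23.4, 25.8, 21.9 and 23.9 CPM on no-Cys against 8.03, 9.67 and 7.89 on no-Trp (log2 fold change 1.47, SE 0.17, adjusted p = 9.35e-05). The groups were far apart beside their spread, and the control livers at 18 and 13.4 CPM lay between them.

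Nsdhl, a dehydrogenase of the late sterol steps, had 57.5, 53.6, 48.1 and 54.2 CPM on no-Cys and 12, 13.8 and 16.7 on no-Trp (log2 fold change 1.91, SE 0.30, adjusted p = 0.00126). Idi1, which isomerises the 5-carbon building block of sterols, showed the largest difference of the list, with 16.2, 24.7, 18.5 and 16.1 CPM against 3.84, 3.67 and 4.86 (2.20, SE 0.45, adjusted p = 0.00673). For both genes every no-Cys liver was above every no-Trp liver, and the 2 control livers lay between the groups (Nsdhl 34.3 and 28.3 CPM, Idi1 9.99 and 5.57 CPM). Among the uncalled members, Ebp had the lowest value (-0.05, adjusted p = 0.793). Without av17, 9 of 20 genes were called and the median was 0.97, while the 7 livers fitted alone gave 16 calls. Single livers ended the calls of Sqle (av02, av03, av17, av19 or av20; adjusted p up to 0.118), Mvd (av02, av17 or av19; up to 0.0862) and Fdft1 (av17 or av19; up to 0.102). Part of the reads of Idi1 and Fdft1 cannot be assigned with certainty, since 24.5% and 24.1% of their 61-base words also occur in other genes. The same holds for other called genes described here, with shares of 33.1% for Nudt19, 30.4% for Irs1, 24.4% for Gm11419, 24.2% for Me1, 22.7% for Cnbd2, 20.3% for Pklr, 15.8% for Dbp, 15.7% for Bhlhe41 and 14.4% for Gbp11.

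**Figure D3:**
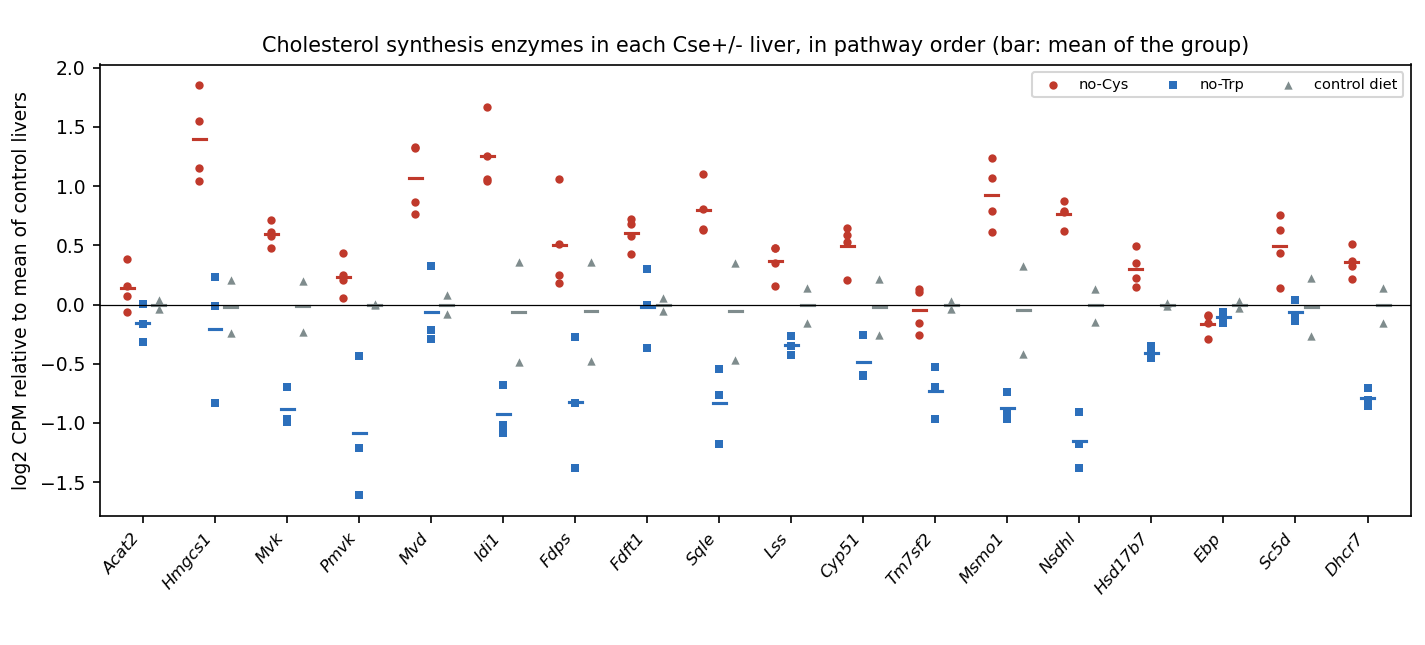
Expression of 18 cholesterol synthesis genes, in pathway order, in each liver as log2 CPM relative to the mean of the 2 control livers. Points are livers by diet and bars are group means; the no-Cys livers lie above the no-Trp livers for 16 of 18 genes, and the genotype is Cse+/- throughout.

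Lipogenic genes, which turn acetyl units into fatty acids and triglycerides, were also higher on no-Cys, with a median of 0.60 and 8 of 19 members called. Scd1, the desaturase that makes monounsaturated fatty acids, had 5822, 7191, 8395 and 9145 CPM in the no-Cys livers, 508, 1404 and 1679.6 in the no-Trp livers and 4995 and 6749.6 on control diet. Its no-Trp livers were lower than all the others, with av17 lowest, and the difference between the diets was 2.67 (SE 0.70, adjusted p = 0.0242).

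Fasn, fatty acid synthase, had 157, 196, 162 and 177 CPM on no-Cys and 79.4, 92.5 and 71.3 on no-Trp (log2 fold change 1.09, SE 0.22, adjusted p = 0.00541). Acss2, which makes acetyl-CoA from acetate, had 120.3, 130.4, 116 and 137 CPM against 60.5, 65.5 and 45.5 (1.14, SE 0.13, adjusted p = 9.35e-05). Neither gene overlapped between the diets, and the control livers of Fasn (87 and 77.4 CPM) lay with the no-Trp livers.

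The elongase Elovl5 (1.28, adjusted p = 0.00644), the malic enzyme Me1 (1.27, adjusted p = 0.00297), the pyruvate kinase Pklr (1.11, adjusted p = 0.0173), the acyltransferase Gpam (0.94, adjusted p = 0.0147) and the citrate lyase Acly (0.60, adjusted p = 0.0368) were the other called members. Srebf1, the transcription factor that drives this set, had 224, 267, 208 and 166 CPM against 104, 189 and 135, with overlap between the diets and no call (0.60, SE 0.29, adjusted p = 0.209). Leaving out single livers ended the calls of Scd1 (av17, av19 or av20; adjusted p up to 0.0863), Pklr and Gpam (av02, av17 or av20; up to 0.0868 and 0.0763) and Acly (av02, av03, av17 or av20; up to 0.142), and of the list 4 genes were called higher and 1 lower without av17, and 4 higher without av20. With the 7 livers fitted alone, 8 genes of the list were called higher and 1 lower.

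The metallothioneins Mt1 and Mt2, small cysteine-rich proteins that bind zinc and copper, showed the largest differences on the lower side among called genes with a mean of at least 1 CPM and no overlap between the diets. Their genes lie next to each other (Mt2 chr8:94172664-94173568, Mt1 chr8:94179082-94180327, GRCm38, both plus strand). The 250 bases before each RefSeq start are shown because the pair moved together. The gene coordinates above are from the GENCODE annotation, whose starts differ from the RefSeq starts. The sequences are from RefSeq (GRCm38.p6, chr8:94178839-94179088 for Mt1 and chr8:94172368-94172617 for Mt2, plus strand), and the capitals mark TGCACNC or TGCGCNC, the core of the metal response element, on either strand.
Mt1 promoter: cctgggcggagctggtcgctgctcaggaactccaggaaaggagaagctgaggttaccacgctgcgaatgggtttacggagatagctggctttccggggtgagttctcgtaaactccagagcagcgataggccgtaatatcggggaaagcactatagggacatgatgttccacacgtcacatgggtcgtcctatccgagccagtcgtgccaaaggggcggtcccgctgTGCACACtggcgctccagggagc
Mt2 promoter: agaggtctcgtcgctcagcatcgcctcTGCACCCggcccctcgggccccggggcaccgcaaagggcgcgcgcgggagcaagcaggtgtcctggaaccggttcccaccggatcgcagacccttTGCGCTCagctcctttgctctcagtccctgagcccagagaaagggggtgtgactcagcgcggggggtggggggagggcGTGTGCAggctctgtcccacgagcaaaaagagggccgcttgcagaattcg
Such words were present in 21.4% of all 32841 promoters and in 29.2% of those of the genes tested, so a single match is common. The motif was chosen after the values were seen.

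Mt1 had 185, 40.8, 116 and 95.4 CPM in the no-Cys livers, 1562, 730.2 and 896 in the no-Trp livers and 335 and 992 on control diet. The highest no-Cys liver, av01, was still below the lowest no-Trp liver, and Mt1 fell by 3.28 on the log2 scale from no-Trp to no-Cys (SE 0.46, adjusted p = 0.000522). Mt2 had 96.5, 12.8, 44.9 and 28.8 CPM on no-Cys against 1225, 465 and 506 on no-Trp, with 188 and 598 on control diet (log2 fold change -4.00, SE 0.60, adjusted p = 0.000763). Within each diet the livers stood in the same order for both genes, with av01 and av17 highest. The antisense gene Gm45774 overlaps 73.5% of the Mt2 exons, and 38.7% of the 61-base words of Mt2 also occur in it. With this non-directional kit, reads from the overlap cannot be told apart.

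Tsc22d3 (GILZ), a classical target of the glucocorticoid receptor, went the other way, with 290.2, 291, 372 and 379 CPM on no-Cys, 58.4, 140.2 and 133 on no-Trp and 213 and 138 on control diet. The no-Cys livers were the highest of all 9, and the difference from no-Trp was 1.59 (SE 0.31, adjusted p = 0.00451). Fkbp5, another glucocorticoid target that encodes a receptor co-chaperone, was lower on no-Cys, with 215, 71.2, 137 and 146 CPM against 252, 291 and 273 (-0.93, SE 0.24, adjusted p = 0.0214, up to 0.0673 with av03, av19 or av20 left out). Cdkn1a, the cell cycle inhibitor p21, had 0.721, 1.13, 1.79 and 4.53 CPM against 4.26, 8.9 and 8.41 (-1.81, SE 0.52, adjusted p = 0.0379, up to 0.118 with av01, av02, av03, av19 or av20 left out). Members of the glucocorticoid set therefore did not share a direction, and the median of the 9 genes was -0.07. With the 7 livers fitted alone, Fkbp5 and Cdkn1a were not called (adjusted p = 0.0901 and 0.0628).

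**Figure D4:**
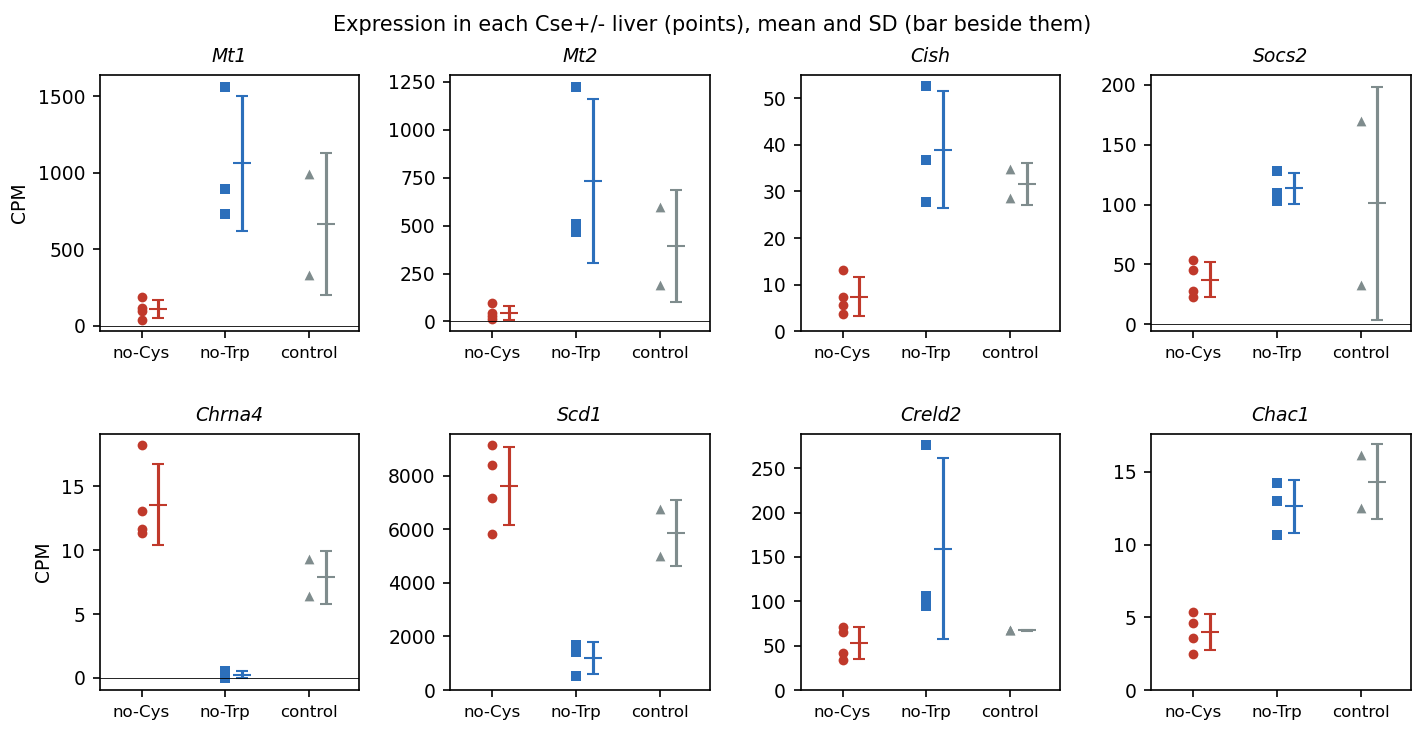
CPM (linear axis) of Mt1, Mt2, Cish, Socs2, Chrna4, Scd1, Creld2 and Chac1 in each Cse+/- liver by diet, with the group mean and SD drawn beside the points (4 no-Cys, 3 no-Trp and 2 control livers). Mt1 sits at 40.8 to 185 CPM on no-Cys and at 730.2 to 1562 on no-Trp.

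Growth hormone signalling acts in liver through STAT5, which raises IGF-1 and the feedback inhibitors CIS and SOCS2. Cish, which encodes CIS, had 13.2, 7.34, 5.6 and 3.61 CPM on no-Cys, 52.5, 36.7 and 27.7 on no-Trp and 28.5 and 34.9 on control diet. Its no-Cys livers were below all 5 others, and Cish fell by 2.40 on the log2 scale (SE 0.34, adjusted p = 0.000522). Socs2 had 53.3, 27.5, 45.6 and 22.6 CPM on no-Cys and 128, 103 and 109.8 on no-Trp (-1.61, SE 0.39, adjusted p = 0.0162, 0.0553 without av02), while the control livers were far apart at 32.3 and 170.0 CPM. Igf1 was not called, at 594 to 695 CPM on no-Cys and 787 to 854 on no-Trp (-0.33, SE 0.11, adjusted p = 0.0641). The median of the 14 genes was -0.13, with 0 called higher by edgeR or by DESeq2 and 2 higher at an unadjusted p under 0.05.

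The circadian clock is a loop in which CLOCK and BMAL1 switch on their own repressors through E-boxes. Several repressor and output genes of the loop were higher on no-Cys, and Arntl (which encodes BMAL1), Cry1 and Nfil3 were lower, with a median of 0.38 over the 17 genes. Ciart, a repressor of CLOCK and BMAL1, is shown with its promoter (RefSeq, GRCm38.p6, chr3:95882229-95882478, minus strand, written 5' to 3' on the gene's strand) because it held the most copies of the E-box CACGTG (capitals) among the called clock genes.
Ciart promoter: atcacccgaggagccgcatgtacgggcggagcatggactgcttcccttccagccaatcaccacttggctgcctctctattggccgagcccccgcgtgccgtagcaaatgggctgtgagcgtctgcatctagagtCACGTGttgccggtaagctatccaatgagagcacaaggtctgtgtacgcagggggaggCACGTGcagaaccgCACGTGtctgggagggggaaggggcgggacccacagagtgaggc
CACGTG was present in 6.02% of all promoters and in 8.06% of those of the genes tested. It was in 2 of 5 promoters found for the 7 clock genes called higher, those of Ciart and Bhlhe41. For the 3 clock genes called lower it was in 1 of 4 promoters, that of Cry1.

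Nr1d1, which encodes the repressor REV-ERBalpha, had 78.9, 96.8, 72.2 and 77.8 CPM on no-Cys, 25.7, 29 and 29.2 on no-Trp and 15.6 and 16.6 on control diet (log2 fold change between the diets 1.54, SE 0.20, adjusted p = 0.000369). Dbp, a PAR-bZIP output factor, had 137, 194, 186 and 178 CPM, 66.6, 67.2 and 79 CPM and 55 and 50.8 CPM in the same order (1.29, SE 0.14, adjusted p = 4.72e-05). For both genes the 3 diets did not overlap, with no-Cys highest and control diet lowest.

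Nfil3, which represses the sites that DBP activates, was the reverse, with 9.19, 14.7, 11.6 and 16.9 CPM on no-Cys, 38.9, 33.7 and 27.9 on no-Trp and 28 and 54 on control diet (-1.34, SE 0.23, adjusted p = 0.00229). Bhlhe41 (1.43), Ciart (0.95), Bhlhe40 (0.85), Per3 (0.62) and Per2 (0.49) were the other genes called higher, with adjusted p from 0.00353 (Bhlhe40) to 0.0291 (Per3). Arntl was low in all no-Cys livers, at 0.631, 0.423, 0.389 and 0.283 CPM, and had 1.14, 2.13 and 0.374 CPM on no-Trp, where av20 fell within the no-Cys range (-1.59, SE 0.48, adjusted p = 0.0457). Single livers ended the calls of Arntl (av02, av03, av04, av17 or av19; adjusted p up to 0.416), Cry1 (av02, av04, av17 or av19; up to 0.124), Per3 (av01, av02, av19 or av20; up to 0.116) and Per2 (av17, av19 or av20; up to 0.0714). The clock list gave 5 higher and 1 lower call without av19, and 6 higher and 1 lower with the 7 livers fitted alone. The sources used here do not give the hour at which each liver was collected.

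**Figure D5:**
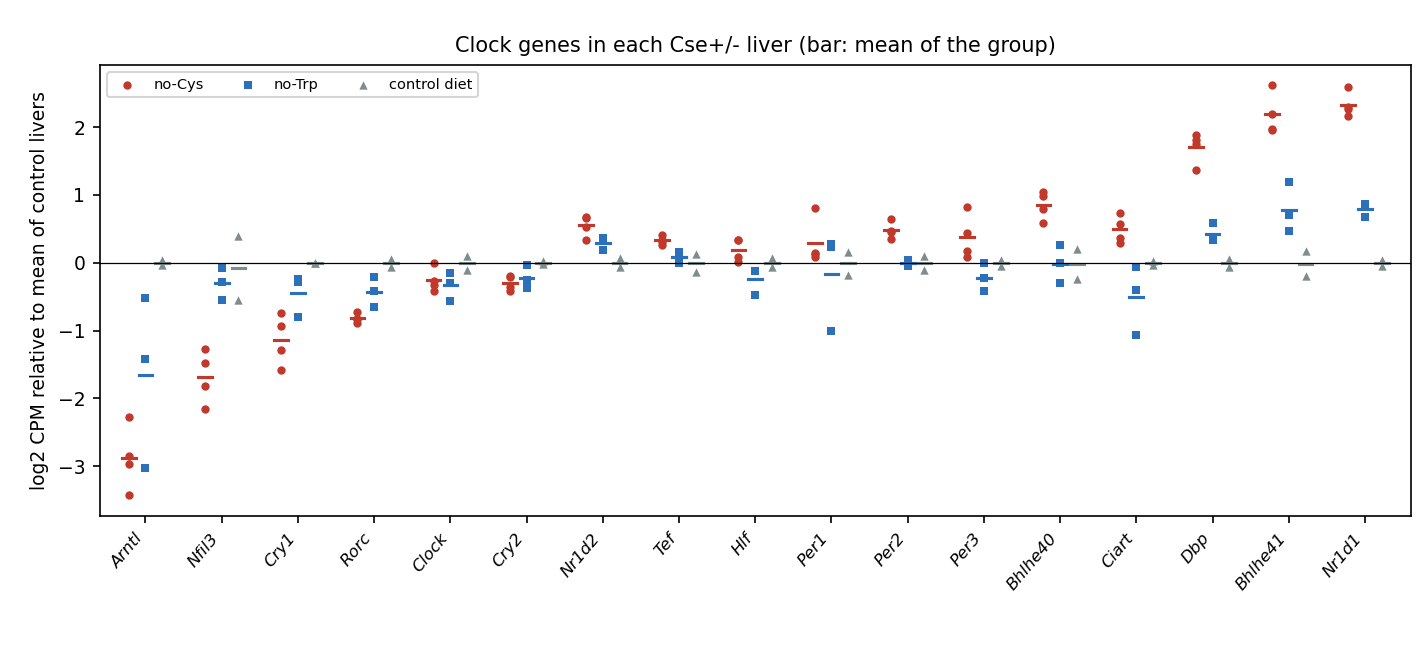
Expression of the 17 clock genes in each Cse+/- liver as log2 CPM relative to the mean of the 2 control livers, with points for livers by diet and bars for group means. Nr1d1 and Dbp are highest on no-Cys and lowest on control diet, and Nfil3 is lowest on no-Cys.

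ISR regulators went in both directions, with 8 of 16 above 0 and 8 below. Of these regulators and early targets, Trib3 was called higher and Chac1, Atf3 and Ppp1r15a lower on no-Cys, and the median was 0.01. Without overlap between the diets, 6 were lower and 1 higher, against 8.56% and 10.5% of all genes. DESeq2 called 4 lower and 1 higher, and an unadjusted p under 0.05 was reached by 5 lower and 1 higher. Chac1, which breaks down glutathione, is shown with its promoter (RefSeq, GRCm38.p6, chr2:119350992-119351241, plus strand) because it had the largest difference among the 3 lower genes. The capitals mark the ATF4-type element TGATGNAA (on the reverse strand). It was in 3.45% of all promoters and 2.22% of those of the genes tested. Of the 3 promoters of the lower genes 2, those of Chac1 and Atf3, contained it.
Chac1 promoter: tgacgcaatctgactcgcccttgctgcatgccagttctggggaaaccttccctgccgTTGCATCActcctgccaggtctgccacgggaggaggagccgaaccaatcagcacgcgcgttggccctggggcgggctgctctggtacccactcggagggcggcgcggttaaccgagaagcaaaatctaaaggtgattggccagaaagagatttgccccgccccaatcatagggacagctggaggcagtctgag
Chac1 had 3.6, 5.36, 4.59 and 2.48 CPM on no-Cys, 14.2, 13 and 10.6 on no-Trp and 12.5 and 16.2 on control diet. The no-Cys livers were below all 5 others, at a log2 difference of -1.65 from no-Trp (SE 0.48, adjusted p = 0.0415). The adjusted p of Chac1 rose above the threshold with any 1 of the 7 livers left out, up to 0.0944.

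Trib3, a pseudokinase induced by ATF4 and CHOP, had 13.4, 23.6, 12.3 and 18.7 CPM on no-Cys, 6.96, 7.34 and 8.59 on no-Trp and 9.22 and 5.57 on control diet (1.16, SE 0.23, adjusted p = 0.00563). Every no-Cys liver was above every other liver, and no single liver decided the call. Atf3 (-1.03, adjusted p = 0.0481) lost its call without any 1 of the 7 livers (up to 0.157), and Ppp1r15a, which restores translation, was at -0.75 (adjusted p = 0.0176, up to 0.0969 with av02, av03 or av19 left out).

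The hormone Fgf21 was low and variable on both diets, with 0.36, 0.847, 0.7 and 3.04 CPM against 1.14, 1.56 and 2.62 (-0.48, SE 0.86, adjusted p = 0.772). Gdf15 was at 1.08, 1.13, 6.07 and 6.16 CPM against 2.13, 3.15 and 5.28 (0.03, SE 0.61, adjusted p = 0.977). Both genes overlapped widely between the diets, and their SEs are large beside the differences.

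The enzymes of amino acid synthesis that ATF4 drives and the aminoacyl-tRNA synthetases gave no calls. Of 11 synthesis enzymes edgeR called 0, with 2 lower at an unadjusted p under 0.05 and 1 lower by DESeq2, and the median was -0.05. Asns, asparagine synthetase, had 16.6 CPM in av01 and 1.48, 3.19 and 0.92 in the other no-Cys livers, against 2.91, 2.67 and 3.55 on no-Trp (0.80, SE 0.59, adjusted p = 0.424), so that its positive value rested on av01 and was -0.71 without it. Psat1, of serine synthesis, had 0.991, 0.988, 0.933 and 1.13 CPM against 2.35, 2.63 and 2.76 and 0.476 and 0.418 on control diet (-1.35, SE 0.48, adjusted p = 0.09). Its 3 diets did not overlap, with no-Trp highest, and with the 7 livers fitted alone it was 1 of 2 synthesis enzymes called lower (adjusted p = 0.0144). Of 20 tRNA synthetases edgeR called 0, as did DESeq2, an unadjusted p under 0.05 was reached by 4 higher and 2 lower genes, and the median was 0.10. The tryptophanyl enzyme Wars had 15.9, 17, 17.3 and 13.7 CPM against 26.4, 17.2 and 14 (-0.26, adjusted p = 0.302), and the cysteinyl enzyme Cars 26, 20.9, 22.8 and 29.7 against 18.3, 19.9 and 22.9 (0.29, adjusted p = 0.541).

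Genes of the unfolded protein response were lower on no-Cys in 6 of 21 cases and had the lowest median of the pathway lists, -0.44. Creld2, a secreted chaperone-like protein, had 42.1, 34.1, 71 and 65.7 CPM on no-Cys, 277, 106 and 94.7 on no-Trp and 67 and 67.1 on control diet (-1.57, SE 0.34, adjusted p = 0.00845). Liver av17 was far above the other no-Trp livers for this gene. Manf (-0.85), Xbp1 (-0.77), Dnajb11 (-0.64), Calr (-0.53) and Atf6 (-0.44) were the other called members, with adjusted p from 0.0147 to 0.0461. Hspa5 (BiP), the central chaperone of the response, had 660.0, 515, 729.6 and 623 CPM against 1369.6, 808 and 651 and was not called (-0.58, SE 0.21, adjusted p = 0.0985). The list's summed level was 4910 to 5638 CPM on no-Cys, 5620 to 8649 on no-Trp and 4819 to 5008 on control diet. Without av17, 0 of the 21 genes were called by edgeR and the median was -0.20. With the 7 livers fitted alone, 2 of 21 were called lower. Liver av17 also held the highest adipocyte marker sum, whose part in this was not tested.

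Of 20 sulfur amino acid genes 2 were higher and 1 lower, against 4.63% and 3.41% of all genes, and the median was 0.00. Cbs, which forms cystathionine one step before Cse, had 395, 347, 367 and 321 CPM on no-Cys and 300.3, 299 and 225 on no-Trp (0.38, SE 0.11, adjusted p = 0.0323), without overlap. That call was lost without av01, av02, av03 or av20 (adjusted p up to 0.164). Ethe1, the mitochondrial persulfide dioxygenase, had 44.3, 48.7, 38.7 and 49.95 CPM against 23.5, 24.5 and 26.3 (0.87, SE 0.13, adjusted p = 0.000931).

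Got1, the cytosolic aspartate aminotransferase, which can also use cysteine as a substrate, had 415, 281, 431 and 260.2 CPM on no-Cys, 761, 580.2 and 604 on no-Trp and 1086 and 1472 on control diet (-0.90, SE 0.21, adjusted p = 0.0117, 0.0521 without av17). Its no-Cys livers were the lowest and its control livers the highest. Cdo1, the dioxygenase that commits cysteine to taurine and sulfate, had 1856 to 2631 CPM on no-Cys and 1799.7 to 1972 on no-Trp, with overlap (0.16, SE 0.12, adjusted p = 0.43).

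Among 25 NRF2 targets 3 were higher and 2 lower, and the median was 0.29. The higher calls numbered 1 without av17 (beside 1 lower), 5 with the 7 livers fitted alone and 6 by DESeq2, and 10 genes were higher at an unadjusted p under 0.05. The heme oxygenase gene Hmox1 had 12.9, 10.7, 13.1 and 9.34 CPM on no-Cys, 30.8, 17.4 and 23.3 on no-Trp and 11.7 and 11 on control diet (-1.04, SE 0.18, adjusted p = 0.0025). The no-Cys livers lay with the control livers and below all no-Trp livers. Osgin1 had a similar pattern (-1.33, adjusted p = 0.0118), with av17 highest at 247 CPM and an adjusted p of 0.0771 without it.

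The pentose phosphate enzyme Tkt (0.79, adjusted p = 0.00286) and the glutathione transferases Gstm4 (0.92, adjusted p = 0.0145, 0.0545 without av17) and Gstm2 (0.78, adjusted p = 0.0273, up to 0.0928 with av01, av04, av17, av19 or av20 left out) were higher on no-Cys. The subunits of glutamate-cysteine ligase, the first enzyme of glutathione synthesis, were not called. Gclc had 168, 227, 185 and 215 CPM on no-Cys against 110.0, 149.7 and 189.9 on no-Trp (0.41, SE 0.19, adjusted p = 0.184), and Gclm 269.6, 245, 223 and 225 against 174, 179 and 205 (0.37, SE 0.11, adjusted p = 0.0503). Nqo1, often used as a reporter of NRF2, had 3.32 to 8.11 CPM against 4.53 to 4.81 (0.29, SE 0.28, adjusted p = 0.561).

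Of 12 genes of coenzyme A metabolism, which uses cysteine, Coasy, the last enzyme of CoA synthesis, was called higher (0.33, adjusted p = 0.0311). Nudt19, a CoA hydrolase, was called lower (-0.34, adjusted p = 0.0432). Over all genes 4.63% were called higher and 3.41% lower, so these calls do not set the list apart. Both calls were lost without single livers (adjusted p up to 0.104 without av02, av03, av04, av17 or av20 for Coasy and up to 0.165 without av01, av02, av03, av19 or av20 for Nudt19), and the list's median was 0.15. Pank1, the kinase that starts the pathway, had 191 to 211 CPM on no-Trp and 213 to 305 on no-Cys, without overlap and without a call (0.38, SE 0.14, adjusted p = 0.0959).

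Tryptophan is degraded in liver through the kynurenine pathway, which also feeds NAD. Of 18 genes 2 were higher and 1 lower, against 4.63% and 3.41% of all genes, with a median of 0.13. Tdo2, the tryptophan dioxygenase that starts the pathway, had 2209.5, 1949, 1921 and 2036 CPM on no-Cys, 1699, 1729 and 1521 on no-Trp and 2536 and 2601 on control diet. The 3 diets did not overlap and no-Trp was lowest, but the difference was not called (0.30, SE 0.13, adjusted p = 0.155). Nampt, which salvages nicotinamide, had 122, 109, 141 and 96.4 CPM against 175, 185 and 183, with 210.2 and 237 on control diet (-0.63, SE 0.13, adjusted p = 0.00717). Nadsyn1 (0.59, adjusted p = 0.0043) and Nmnat3 (0.74, adjusted p = 0.00929), which complete NAD synthesis, were higher on no-Cys.

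Of 19 amino acid transporters Slc36a1 (0.47, adjusted p = 0.044) was higher and Slc16a10, the aromatic amino acid transporter TAT1, lower on no-Cys. These counts are close to the shares over all genes (4.63% higher and 3.41% lower). Slc16a10 had 134, 101, 117 and 118 CPM on no-Cys and 173, 151 and 166 on no-Trp (-0.47, SE 0.13, adjusted p = 0.0365), with 137 and 117 on control diet. The no-Trp livers were thus the highest for this carrier of tryptophan, but both transporter calls were lost when single livers were left out (adjusted p up to 0.113 for Slc16a10 without any one but av01, and up to 0.184 for Slc36a1 without av02, av03, av19 or av20). Of 26 genes of amino acid catabolism, Amt, of the glycine cleavage system, was called higher (0.54, SE 0.10, adjusted p = 0.00286).

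Genes of glucose handling that were higher on no-Cys were the transporter Slc2a2 (GLUT2), Pfkfb3, Irs1 and Pygl, which are 4 of 14 tested, against 0 lower by edgeR or DESeq2 and 1 lower at an unadjusted p under 0.05. Slc2a2 had 546, 514, 478 and 423 CPM on no-Cys, 261, 348 and 265 on no-Trp and 337 and 297 on control diet (0.75, SE 0.13, adjusted p = 0.00235). Pfkfb3, which makes the glycolytic activator fructose-2,6-bisphosphate, had 65.2, 92.1, 105 and 107 CPM against 17.5, 55.5 and 43.2 (1.24, SE 0.27, adjusted p = 0.00888). Both genes were higher in every no-Cys liver than in any other. The insulin receptor substrate Irs1 (1.16, adjusted p = 0.0231, up to 0.0842 with av01, av17 or av20 left out) and the liver glycogen phosphorylase Pygl (0.51, adjusted p = 0.0289, up to 0.137 with av02, av03, av17 or av20 left out) lost their calls when single livers were left out. With the 7 livers fitted alone only Slc2a2 was still called higher (adjusted p = 0.0245), Pfkfb3 was at an adjusted p of 0.0621, and 1 gene of the list, Igfbp1, was called lower (-1.12, adjusted p = 0.0433). Pck1, of gluconeogenesis, overlapped between the diets at 4521 to 6552 and 3759 to 5449.5 CPM (0.20, SE 0.14, adjusted p = 0.408).

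Among 16 bile acid genes Slc10a1 and Hsd3b7 were higher and the median was 0.35. Slc10a1 (NTCP), which takes up bile acids from blood, had 1055, 1012, 904 and 845 CPM on no-Cys, 599, 519.6 and 447 on no-Trp and 664 and 643 on control diet (0.87, SE 0.15, adjusted p = 0.00202). Hsd3b7, a dehydrogenase of bile acid synthesis, had 313, 489, 464 and 458 CPM against 282, 262 and 207 (0.79, SE 0.17, adjusted p = 0.0082), but 80.1% of its 61-base words are shared with the overlapping gene models Gm49388 and 9430064I24Rik.

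In 4 further lists edgeR called 0 genes. They were the urea cycle (8 genes, median 0.08; 1 higher at an unadjusted p under 0.05), targets of the fatty acid sensor PPARalpha (28 genes, median -0.07; 4 lower), acute phase proteins (17 genes, median -0.29; 2 lower) and cytochromes P450 (18 genes, median -0.08; 1 higher and 1 lower). The acute phase list turned on single livers, with 4 genes called lower and a median of -0.67 without av01 and a median of 0.0032 without av17. DESeq2 called 1 cytochrome P450 gene lower and 0 genes in the other 3 of these lists. Cpt1a, the PPARalpha target that admits fatty acids to mitochondria, had 478 to 656 CPM on no-Cys and 450.5 to 683 on no-Trp. Of 12 cell cycle genes Mcm5 was called higher (1.19, adjusted p = 0.0368, up to 0.111 with single livers other than av01 left out) at 0.901 to 2.02 CPM against 0.426 to 0.794.

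Outside the lists, the largest difference was at Chrna4 (chr2:181018380-181043546, GRCm38, minus strand), a subunit of the nicotinic acetylcholine receptor. It had 13.1, 11.6, 11.4 and 18.2 CPM on no-Cys, 0, 0.204 and 0.561 on no-Trp and 6.42 and 9.33 on control diet (5.64, SE 0.52, adjusted p = 1.6e-05). The no-Trp livers were near 0 and the no-Cys livers were the highest. Rgs16, an inhibitor of G protein signalling, had 223, 431, 401 and 667 CPM against 36.4, 83.7 and 144 (2.29, SE 0.40, adjusted p = 0.00251). The gene model Gm28513 (4.12, adjusted p = 0.000522) lies antisense to Rgs16, and the overlap covers 38.5% of its exonic bases and 10.1% of those of Rgs16. Reads from the overlap cannot be told apart with this non-directional kit.

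The other leading genes on the higher side were Mycn (2.55), Ugt1a5 (2.43), Esrrg (2.26), Gm11419 (2.17), Sema5b (2.15), Blm (2.12) and Spon2 (2.12), besides Scd1 and Idi1. Mycn is a transcription factor of the MYC family, Blm a DNA helicase and Esrrg an orphan nuclear receptor. Myc, the better-known relative of Mycn, went the other way, with 4.33, 3.95, 4.36 and 3.11 CPM on no-Cys, 29.1, 11.7 and 8.83 on no-Trp and 16.4 and 21.2 on control diet (-2.05, SE 0.45, adjusted p = 0.00946, 0.0604 without av17). Its no-Cys livers were below all 5 others. Ugt1a5 shares 63.8% of its words with other genes of the Ugt1a cluster, Gm11419 lost its call without any 1 liver (adjusted p up to 0.183) and Esrrg without av19 (0.0619).

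On the lower side, besides Mt1, Mt2, Cish and Myc, stood Ikzf4 (-3.13), Fbf1 (-2.88), Gbp11 (-2.64), Scara5 (-2.56), Btbd19 (-2.50), Dusp8 (-2.08), Cnbd2 (-2.06) and Fam107a (-2.01). Fbf1, a ciliary protein, had 9.37, 19, 15.2 and 20.2 CPM on no-Cys, 139, 139 and 75.5 on no-Trp and 69.5 and 76 on control diet (SE 0.48, adjusted p = 0.00175). Scara5, a ferritin receptor, had 14.1, 3.67, 5.44 and 1.77 CPM against 55.7, 36.4 and 15.6, with 35 and 48.7 on control diet (SE 0.56, adjusted p = 0.00929). In both genes the no-Cys livers were the lowest. The calls of Gbp11 (without av17, adjusted p = 0.0738), Cnbd2 (without av19, 0.116) and Dusp8 (without av02, av03, av19 or av20, up to 0.0865) depended on single livers.

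Against control diet, 146 genes (0.989%) were higher and 176 (1.19%) lower on no-Cys, while on no-Trp 1 gene (0.00678%) was higher and 6 (0.0407%) were lower. Both comparisons share the same 2 control livers and the groups differ in size, so their values are only set side by side. The 1 gene higher on no-Trp was Rnf186, a ubiquitin ligase, with 26.3, 19.6 and 13 CPM against 3.45 and 6.34 on control diet and 6.04 to 11.5 on no-Cys. The 6 lower genes were Etnppl, Ddc, Itih5, Chrna4, Sds and Ugt1a5. Against control diet Chrna4 stood at a log2 difference of -4.85 on no-Trp (adjusted p = 0.000606) and of 0.79 on no-Cys (adjusted p = 0.352). Sds, serine dehydratase, was lower on both diets, with 174 to 236 CPM on no-Cys, 141 to 222 on no-Trp and 378 and 496 on control diet (-1.19, adjusted p = 0.00547, and -1.30, adjusted p = 0.0287).

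The medians of the cholesterol genes lay on opposite sides of control diet, at 0.52 on no-Cys and -0.44 on no-Trp. Of the 20 genes 1, Hmgcs1, was called on no-Cys (1.44, adjusted p = 0.0187) and 0 on no-Trp. Lipogenic genes had medians of 0.38 and -0.33, with 3 of 19 called higher on no-Cys and 0 called on no-Trp. In the clock list 5 of 17 genes were called higher and 4 lower on no-Cys, and 0 were called on no-Trp. Nr1d1 was at 2.34 (adjusted p = 7.97e-05) and Dbp at 1.71 (adjusted p = 2.52e-05) on no-Cys, against 0.80 (adjusted p = 0.285) and 0.42 (adjusted p = 0.422) on no-Trp. Mt1 was at -2.60 on no-Cys (adjusted p = 0.0078) and 0.68 on no-Trp (adjusted p = 0.754), and Cish at -2.11 (adjusted p = 0.0059) on no-Cys. The unfolded protein response list had a median of 0.07 on no-Cys and 0.53 on no-Trp, with 1 of 21 genes called higher on no-Cys and 0 called on no-Trp.

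The difference between these diets was itself compared with the same difference in Cse-/- livers, in an interaction that shares no library between its 4 groups. It was called for 643 genes (4.36%) in either direction. All 20 cholesterol genes were among them and were positive, with log2 differences between the diets of -1.42 to -0.21 in Cse-/- livers. Of 25 NRF2 targets 13 were called, all negative, and their median difference between the diets was 1.35 in Cse-/- against 0.29 in Cse+/- livers. The Cse-/- mice lack the last enzyme of this route to cysteine.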

How the data were processed

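The authors extracted RNA from liver with TRIzol, made poly(A)-selected, non-directional, paired-end libraries, aligned the reads to GRCm38 with HISAT2 2.1.0 and deposited a table of raw read counts per gene made with htseq-count (HTSeq 0.11.0). The annotation release and the strand setting are not given in the sources used here, and 1 column of the table that matched no sample was not used. Genes were named with GENCODE M21.

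All 20 libraries in 6 groups were fitted together with edgeR 4.0.16 (filterByExpr, minimum count 10, TMM factors, quasi-likelihood F test) in R 4.3.3, and the diets were compared as a contrast. The spread was thus estimated from all groups, the Cse-/- livers given BSO among them. Adjusted p is Benjamini-Hochberg over 14759 genes, a gene is called under 0.05, and the SE equals the absolute log2 fold change over the root of F. On data simulated for this comparison (14482 genes) the fit recovered 69.4% of 2-fold and 92.2% of 4-fold changes, with 2 false calls. The simulated spread followed only the trend with expression and held no deviating liver, so these values are not error rates for the real livers.

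Named genes were, for each direction, the 12 called genes with the greatest log2 difference among those with a mean of at least 1 CPM and no overlap, the called members of each list, a few members named whatever their value, and each list's extremes. The rule for the livers used genotype and diet, but this comparison and the gene lists were chosen with earlier results of these data known. Nothing in the labels says more of the replicates than separate mice, and replicate counts differed by more than sampling noise (chi-square per gene 15.1 to 49.8 over 9 pairs). Alternatives were other scaling factors, DESeq2 1.42.0, other filters, the 7 livers alone, adjusted p under 0.01, thinning to 11785740 counts and leaving out each liver. Promoters (250 bases before the start) came from RefSeq, GRCm38.p6, and were searched on both strands. Results of some genes are not reported here.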

Additional observations from a re-analysis of the deposited data

Results flagged for a closer look

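In the no-Cys group 1 liver stood apart from the other 3 by Dixon's test for 7 of 140 named genes. That is about the share that chance gives, 1 group in 20. Liver av01 was the far one for Asns (16.6 CPM), Orm2 (150.1), Sds (236), Irs1 (10.8) and Cth (332), av03 for Cyp8b1 (161) and av02 for Nmnat3 (10.4).

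For 50 of the 140 named genes the difference between the diets in Cse+/- livers differed from that in Cse-/- livers by edgeR's interaction term. Over all genes tested the share was 4.36%. Many named genes were chosen by their call or size in the Cse+/- contrast, which is itself part of this term. Their share and signs are therefore not independent of that choice. The values below are log2 differences, the Cse+/- contrast minus the Cse-/- contrast, at an adjusted p under 0.05. The sterol genes named here were all positive, at 3.32 (Nsdhl), 3.27 (Idi1), 2.87 (Msmo1), 2.49 (Sqle), 2.31 (Hmgcs1), 2.06 (Mvd), 1.80 (Mvk), 1.80 (Dhcr7), 1.79 (Pmvk), 1.24 (Hsd17b7), 1.22 (Fdft1), 0.93 (Lss) and 0.66 (Ebp). So were the lipogenic genes Scd1 (4.02), Srebf1 (1.98), Elovl5 (1.61), Fasn (1.51) and Acss2 (1.28). The clock genes Per3 (1.30), Dbp (1.26), Bhlhe40 (1.04) and Per2 (0.83) and the carriers Slc10a1 (0.83) and Slc2a2 (0.66) were positive too, as was Pank1 (0.70). Negative values were found for the stress and synthesis genes Phgdh (-4.10), Psat1 (-3.50), Chac1 (-3.03), Creld2 (-1.83), Manf (-1.35) and Atf6 (-0.83), and for the NRF2 targets Nqo1 (-1.74), Srxn1 (-1.58), Gstm2 (-1.22), Gstm4 (-1.20) and Hmox1 (-1.09). Negative values also stood at Cdkn1a (-4.51), Mt2 (-4.22), Mt1 (-3.50), Cish (-2.57), Got1 (-1.54), Lyve1 (-1.30) and Oat (-0.75). Among the leading genes the value was 9.02 for Chrna4, 3.71 for Sema5b, 3.24 for Ugt1a5, 2.68 for Spon2, 2.51 for Esrrg, 2.03 for Blm and 1.38 for Itih5.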

How the results depend on the processing

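The counts of 683 genes higher and 503 lower on no-Cys were 335 and 245 when the 7 livers were fitted alone and 192 and 137 at an adjusted p under 0.01. With 1 liver left out they ranged from 332 to 705 and from 256 to 624. Other scaling factors, DESeq2, other filters and thinning kept both counts within 1.5 times, and DESeq2 called 849 higher and 638 lower, 1164 of them shared. Of the 140 named genes 95 were called, and 62 to 82 of these were called with 1 liver left out. At an adjusted p under 0.01 the number was 53, after thinning 84, and with the 7 livers alone 72 of 94. The latter fit lost Etnppl, Ddc, Coasy, Nudt19, Calr, Dnajb11, Xbp1, Manf, Atf3, Slc36a1, Mcm5, Fdft1, Per3, Cry1, Fkbp5, Cdkn1a, Pfkfb3, Irs1, Pygl, Pecam1, Cbs and Nmnat3 (adjusted p from 0.0511 to 0.138). It gained 5 calls, among them Psat1, Slc1a5, Cyp8b1 and Igfbp1 (0.0144 to 0.0452). Signs reversed in uncalled genes alone. With 1 liver left out, the log2 fold change of Asns ranged from -0.71 to 1.18, that of Vnn1 from -0.49 to 0.047, Gdf15 from -0.36 to 0.42, Cpt1a from -0.077 to 0.22, Orm2 from -0.89 to 1.72, Sds from -0.033 to 0.30 and Cth from -0.089 to 0.55, and Mylpf stood at 0.0095 after thinning. The cause was not tested. No paired analysis was possible because the columns carry mouse numbers and not the replicate numbers of the labels. Depth limits genes under about 1 CPM, for which a liver holds few counts, and the 2 control livers limit the comparisons with control diet.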
